A study of Mus musculus with 8 samples.

Results

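The 2 metallothioneins of mouse liver, Mt1 and Mt2, and 6 genes that sense or move zinc were compared between livers lacking Hmgb1 in hepatocytes and control livers. The 6 were the sensor Mtf1, the importers Slc39a14, Slc39a8 and Slc39a5, and the exporters Slc30a1 and Slc30a10. These 8 genes were taken by gene symbol, 1 probe set per gene, out of 19938 genes measured, and all 8 were found. Each had 1 probe set that carried its symbol and no other.

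Gene expression had been measured on 8 arrays of total RNA from livers of male littermates 8 weeks old, 4 per group. Hmgb1 encodes a DNA-binding protein of chromatin. In the deleted group its floxed alleles had been cut out by Albumin-Cre, whose promoter works in hepatocytes. Liver cells that do not arise from albumin-expressing cells should therefore keep the gene, and bile duct cells can share that origin. The control group carried floxed Hmgb1 alleles, and no title of theirs mentions Cre, so effects of Cre and of losing Hmgb1 cannot be told apart. The labels call the tissue whole liver on a C57Bl/6 background backcrossed 5 times in one place, and liver stellate cells of Balb/c mice in another. Albumin, the defining hepatocyte product, had a higher mean intensity than 99.99% of the genes, with values of 13.26 to 14.03. The stellate cell marker Lrat, at 7.82 to 8.87, had a higher mean than 83.1% of the genes. Whether every array came from its own animal is not stated, so p-values here measure array-to-array spread, which may be technical.

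Metallothioneins are small, cysteine-rich proteins that bind zinc, copper and cadmium. In the liver they buffer zinc, and their genes are strongly induced by zinc, by glucocorticoids and by inflammatory signals such as interleukin-6. Free zinc activates MTF-1, the product of Mtf1, which binds metal response elements in the promoters of Mt1, Mt2 and Slc30a1. ZIP proteins (Slc39a genes) carry zinc into the cytosol, ZnT proteins (Slc30a genes) carry it out, and several members also carry manganese.

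The windows around the start sites of 4 of the genes are shown for the metal response element that MTF-1 binds. They are those of Mt1, Mt2 and Slc30a1, its known targets, and of Slc30a10, the 1 gene whose groups did not overlap. Each runs from 250 bases before to 50 after the start site in RefSeq on the forward strand of assembly GRCm38.p6. Capitals mark matches, on either strand, to the core of the element, searched as TGCACNC and TGCGCNC. The windows lie at chr8:94178839-94179138 for Mt1, chr8:94172368-94172667 for Mt2, chr1:191906531-191906830 for Slc30a1 and chr1:185454598-185454897 for Slc30a10.
Mt1: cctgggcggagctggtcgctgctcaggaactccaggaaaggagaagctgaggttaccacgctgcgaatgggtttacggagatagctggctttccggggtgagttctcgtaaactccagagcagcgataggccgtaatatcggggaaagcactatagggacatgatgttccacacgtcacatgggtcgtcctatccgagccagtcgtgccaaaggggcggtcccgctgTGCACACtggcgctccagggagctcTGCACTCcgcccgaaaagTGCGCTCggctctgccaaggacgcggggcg
Mt2: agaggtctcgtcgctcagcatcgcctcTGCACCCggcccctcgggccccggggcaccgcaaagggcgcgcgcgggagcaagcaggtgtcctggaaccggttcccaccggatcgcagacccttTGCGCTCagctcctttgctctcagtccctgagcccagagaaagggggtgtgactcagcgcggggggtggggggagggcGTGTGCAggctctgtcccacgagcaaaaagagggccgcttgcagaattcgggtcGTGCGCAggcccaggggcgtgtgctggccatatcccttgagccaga
Slc30a1: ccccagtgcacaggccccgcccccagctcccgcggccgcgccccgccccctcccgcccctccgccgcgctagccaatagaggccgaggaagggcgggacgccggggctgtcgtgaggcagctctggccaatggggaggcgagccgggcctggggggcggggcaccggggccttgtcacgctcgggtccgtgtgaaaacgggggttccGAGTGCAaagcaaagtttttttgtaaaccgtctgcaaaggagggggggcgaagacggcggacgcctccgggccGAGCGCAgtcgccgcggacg
Slc30a10: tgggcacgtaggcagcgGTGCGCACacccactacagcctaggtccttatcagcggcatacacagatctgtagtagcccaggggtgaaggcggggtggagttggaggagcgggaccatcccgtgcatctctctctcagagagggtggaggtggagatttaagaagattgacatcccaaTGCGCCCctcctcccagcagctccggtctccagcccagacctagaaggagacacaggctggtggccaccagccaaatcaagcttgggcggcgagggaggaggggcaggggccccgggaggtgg

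The core was found 3 times in the window of Mt1, 4 times in that of Mt2, 2 times in that of Slc30a1 and 3 times in that of Slc30a10, where 2 of the matches overlap on opposite strands. Of 32851 such windows of mouse genes, 25.7% held at least 1 match, 7.11% at least 2, 1.97% at least 3 and 0.517% at least 4. These shares leave out the windows of 1 chromosome. Counting the RefSeq start site as position 1, the matches of Mt1 lay between positions −23 and 27. Where transcription starts in these livers was not measured, so the positions hold for the annotated start only. Those of Mt2 were spread from position −223 to position 11. The window of Mtf1 held 0 matches, and no window was available for Slc39a14. Slc39a8 and Slc39a5 have 2 windows each in RefSeq, with a match in 1 of the 2. A match in letters is a description and says nothing of binding, and elements outside the windows were not searched.

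**Figure D1:**
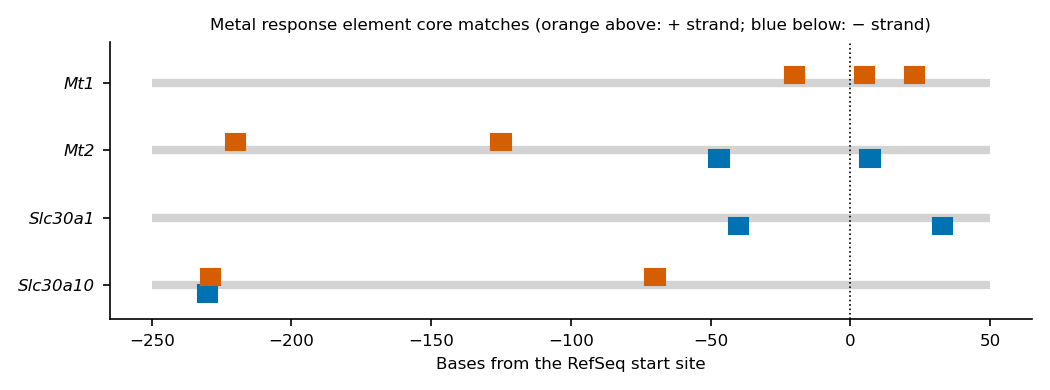
Positions of the matches to the metal response element core in 4 promoter windows, in bases from the RefSeq start site (dotted line). Orange boxes above a grey window are matches on the + strand and blue boxes below it on the − strand, with 3 for Mt1, 4 for Mt2, 2 for Slc30a1 and 3 for Slc30a10.

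In the comparison of the 2 groups Mt1 and Mt2 had the lowest log2 fold changes of the 8 genes, but they varied widely among the controls and neither passed the test. Mt1 had a mean log2 intensity of 9.18 ± 0.25 (SD, n = 4) in deleted and 10.39 ± 0.84 (SD, n = 4) in control livers, a level 2.31-fold lower. Mt2 had 9.67 ± 0.15 (SD, n = 4) and 11.29 ± 1.33 (SD, n = 4), 3.08-fold lower. The manganese exporter gene Slc30a10 was 1.22-fold higher with groups that did not overlap, and the importer gene Slc39a14 was 1.18-fold lower with groups that did. Mtf1, Slc39a8, Slc39a5 and Slc30a1 had log2 fold changes between 0.015 and 0.098. Of the 8 genes, 0 had an adjusted p under 0.05 in limma's test over all genes, where 0.692% of genes did, 0.296% higher and 0.396% lower. In numbers these were 59 higher and 79 lower, a split that became 153 and 111 with quantile normalization again and 33 and 28 with arrays centred on their medians. At an unadjusted p under 0.05 there were 4 of 8 (Mt1, Mt2, Slc39a14 and Slc30a10), and 9.46% of all genes.

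**Figure D2:**
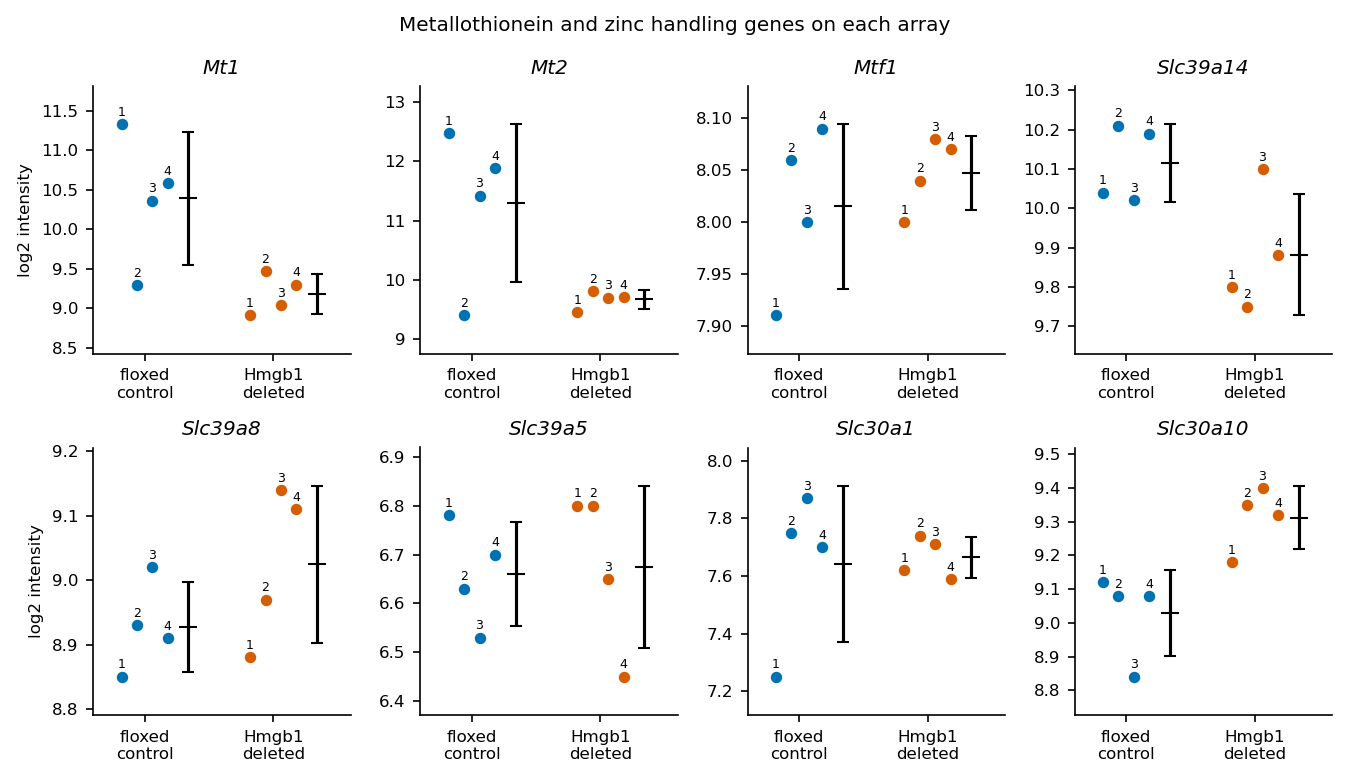
Log2 intensity of the 8 genes on each array, on a separate scale for each gene. Blue points are the 4 floxed controls and orange points the 4 Hmgb1 deleted livers, with the array's number, and black bars are the mean ± SD. For Mt1 and Mt2, controls 1, 3 and 4 lie above all deleted arrays, while control 2 lies among them for Mt1 and just below them for Mt2.

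The deletion itself was seen on the arrays. Hmgb1 was 1.87-fold lower on its own, dim probe set, or −0.91 in log2 (limma adjusted p = 0.0216). Of 34 probe sets shared with its copies 33 fell past the threshold, with a median log2 fold change of −2.15 over the 34. Floxed control 1 stood apart from the other arrays, at 26.6 on the first principal component against −11.7 to 11.4, with the lowest array weight (0.254 against 0.592 to 2.58). Without it 90 genes were past the threshold as higher and 231 as lower. For the 8 genes, values without it are given where they move by over 1.5 times.

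Mt1 encodes metallothionein 1. Its log2 intensities were 11.33, 9.29, 10.36 and 10.58 on floxed controls 1 to 4, and 8.91, 9.47, 9.04 and 9.30 on deleted 1 to 4. The deleted arrays lay within 0.56 of each other, a 1.47-fold range, whereas the controls spanned 2.04, a 4.11-fold range. Control 2 lay below deleted 2 and deleted 4, so the groups overlapped, while the other 3 controls lay above every deleted array. The log2 fold change was −1.21 (SE 0.33, 95% interval −1.94 to −0.48, limma adjusted p = 0.175). An exact 2-sided permutation test of the group means gave p = 0.0857, where 0.0286 is the smallest that 4 against 4 can give.

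Mt2 encodes metallothionein 2, which is induced together with metallothionein 1. Its log2 intensities were 12.47, 9.40, 11.42 and 11.88 on controls 1 to 4, and 9.45, 9.81, 9.70 and 9.71 on deleted 1 to 4. Control 2 was the lowest of all 8 arrays, and the other 3 controls lay between 3.37-fold and 6.98-fold above the deleted mean. The controls spanned an 8.40-fold range and the deleted arrays a 1.28-fold range. The log2 fold change was −1.63 (SE 0.50, 95% interval −2.74 to −0.52, limma adjusted p = 0.241; exact 2-sided permutation p = 0.143).

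By size of the fall alone, Mt2 ranked 4 and Mt1 ranked 12 among the 19938 genes. By spread among the controls they ranked 7 and 28. The SD among controls was 1.33 for Mt2 and 0.84 for Mt1, against a median of 0.11 over all genes. In the deleted group their SDs ranked 4637 and 707, with a median over all genes of 0.11 there too. The SD of controls over that of deleted arrays was 8.70 for Mt2 and 3.34 for Mt1, and 51.6% of all genes had the larger SD among controls. The difference in spread between the groups was not tested.

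A single array decided the call for both metallothioneins. Without control 2, Mt1 was at −1.58 (SE 0.21, limma adjusted p = 0.0200) and Mt2 at −2.26 (SE 0.20, limma adjusted p = 0.00351), when 0.411% of genes passed. Without control 1, the array that stood apart, the log2 fold changes were −0.90 for Mt1 and −1.23 for Mt2, and neither passed. With any of the other 6 arrays left out, both means were lower in deleted livers and neither passed. Over all alternatives the limma adjusted p ran from 0.0200 to 0.416 for Mt1 and from 0.00351 to 0.548 for Mt2. Nothing in the labels sets control 2 apart from the other controls.

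**Figure D3:**
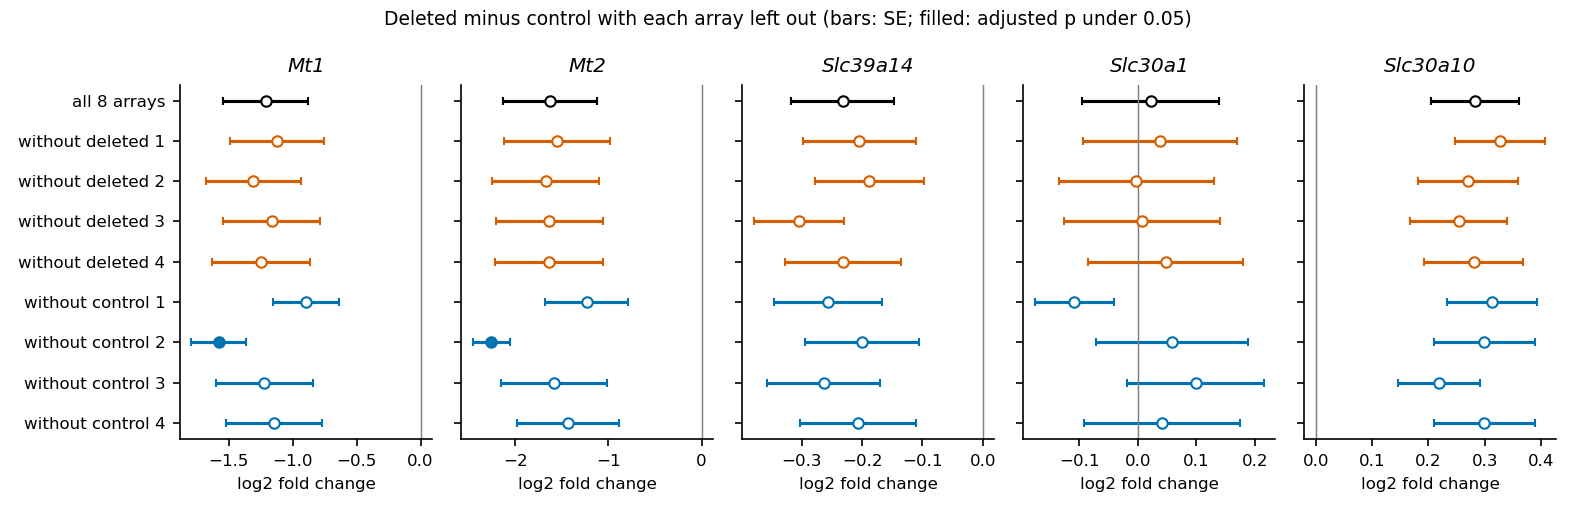
Log2 fold change, deleted minus control, of 5 genes with all 8 arrays and with each array left out in turn. Bars are the SE, orange marks leave out a deleted and blue marks a control array, and filled marks have a limma adjusted p under 0.05. The filled marks without an array are those of Mt1 and Mt2 without control 2.

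Mtf1, which encodes the zinc-sensing transcription factor MTF-1, had nearly the same level on all arrays. It ran from 7.91 to 8.09 on the controls and from 8.00 to 8.08 on the deleted arrays, which is a difference of 0.033 (SE 0.061, 95% interval −0.10 to 0.17, limma adjusted p = 0.975). Without control 1 it was −0.0025. The array gives its transcript level and not the activity of the protein.

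Among the importers, Slc39a14 (ZIP14) takes up zinc, manganese and iron into hepatocytes and is induced by interleukin-6. Its log2 intensities were 10.04, 10.21, 10.02 and 10.19 on controls 1 to 4, and 9.80, 9.75, 10.10 and 9.88 on deleted 1 to 4. Deleted 3 was the 1 deleted array inside the control range, and the other 3 lay below it. The log2 fold change was −0.23 (SE 0.086, 95% interval −0.42 to −0.044, limma adjusted p = 0.360; exact 2-sided permutation p = 0.0857). Unlike the metallothioneins, control 2 was here the highest array.

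Slc39a8 (ZIP8), which carries zinc and manganese, ran from 8.85 to 9.02 on controls and from 8.88 to 9.14 on deleted arrays, a difference of 0.098 (SE 0.073, limma adjusted p = 0.848). Slc39a5 (ZIP5), an importer of the basolateral membrane of polarised epithelia, ran from 6.53 to 6.78 on controls and from 6.45 to 6.80 on deleted arrays. Its log2 fold change was 0.015 (95% interval −0.18 to 0.21, limma adjusted p = 0.993), and its sign turned in 3 of the 8 comparisons with an array left out. Without control 1 it was 0.055. For both genes the groups overlapped throughout.

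Among the exporters, Slc30a1 (ZnT1) pumps zinc out across the plasma membrane and, like the metallothioneins, is a target of MTF-1. Its log2 intensities were 7.25, 7.75, 7.87 and 7.70 on controls 1 to 4, and 7.62, 7.74, 7.71 and 7.59 on deleted 1 to 4. Control 1, the highest array for Mt1 and Mt2, was the lowest for Slc30a1, and the other 3 controls lay within the deleted range or above it. The log2 fold change was 0.023 (SE 0.12, 95% interval −0.23 to 0.28, limma adjusted p = 0.993), and −0.11 (SE 0.067) without control 1.

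Slc30a10 (ZnT10) exports manganese from hepatocytes into bile. Its log2 intensities were 9.12, 9.08, 8.84 and 9.08 on controls 1 to 4, and 9.18, 9.35, 9.40 and 9.32 on deleted 1 to 4. All deleted arrays lay above all controls, the 1 gene of the 8 for which the groups did not overlap, against 5.57% of all genes in either direction and 3.28% in this direction. The log2 fold change was 0.28 (SE 0.079, 95% interval 0.11 to 0.46, limma adjusted p = 0.181). The exact 2-sided permutation p was 0.0286, not adjusted for the 8 genes. With array weights, where 2.64% of genes passed, the change was 0.31 and passed (limma adjusted p = 0.0468).

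The remaining metallothionein genes and zinc transporters were then read from the same fit. Mt4, Mt3, Mt2 and Mt1 lie side by side on chromosome 8 in RefSeq order, with no other protein-coding gene between them. Mt3, known from brain, ran from 7.55 to 7.87 on controls and from 7.61 to 7.84 on deleted arrays, and Mt4, known from stratified epithelia, from 5.93 to 6.11 and from 5.88 to 6.10. Their log2 fold changes were 0.065 (95% interval −0.12 to 0.25), or 0.14 without control 1, and −0.0050 (−0.15 to 0.14). Mt4 lay close to the array medians of 6.08 to 6.22. Genes known from other tissues could hardly show a fall, so no conclusion on Mt1 and Mt2 is drawn from them. The sign of the Mt4 value turned with both rescalings of the arrays.

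Of the 11 other ZIP genes 5 were higher and 6 lower, with a median log2 fold change of −0.0075, and of the 9 other exporter genes 5 were higher and 4 lower, with a median of 0.013. Over all genes 49.8% were lower and the median was 0. The first median was 0.013 with arrays centred on their medians, and the second was −0.0025 without control 1. In both lists 0 genes passed (limma), against 0.692% of all genes. At an unadjusted limma p under 0.05 there were 1 of 11 and 1 of 9, against 9.46% of all genes. Both shares of all genes also apply to the lists below. The importer at that level was Slc39a10 (ZIP10), which MTF-1 is known to repress when zinc is plentiful. It had log2 intensities of 6.01, 6.35, 6.13 and 6.15 on controls 1 to 4, and 6.50, 6.43, 6.44 and 6.86 on deleted 1 to 4. The control values lay close to the array medians of 6.08 to 6.22. The groups did not overlap, as for 3.28% of all genes in this direction, with a difference of 0.40 (SE 0.11, limma adjusted p = 0.159). The exporter was Slc30a6, which loads the secretory pathway, at 0.22 (SE 0.090, limma adjusted p = 0.449), also with groups apart, and at 0.13 without control 1.

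The importer genes with the next smallest p were Slc39a11 (−0.15), Slc39a1 (0.11) and Slc39a9 (0.13), all with overlapping groups. Among exporter genes they were Slc30a9 (−0.15), Slc30a5 (0.073) and Slc30a8 (−0.045), of which Slc30a5 turned to −0.0083 without control 1. Without that array Slc30a9 was at −0.27, Slc30a8 at −0.030 and Slc39a9 at 0.073. The 95% intervals of 9 of the 11 importers and 9 of the 9 exporters lay within 1.5-fold in either direction. Mt1 and Mt2 are the 2 genes of this plot whose intervals extend beyond −1.

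**Figure D4:**
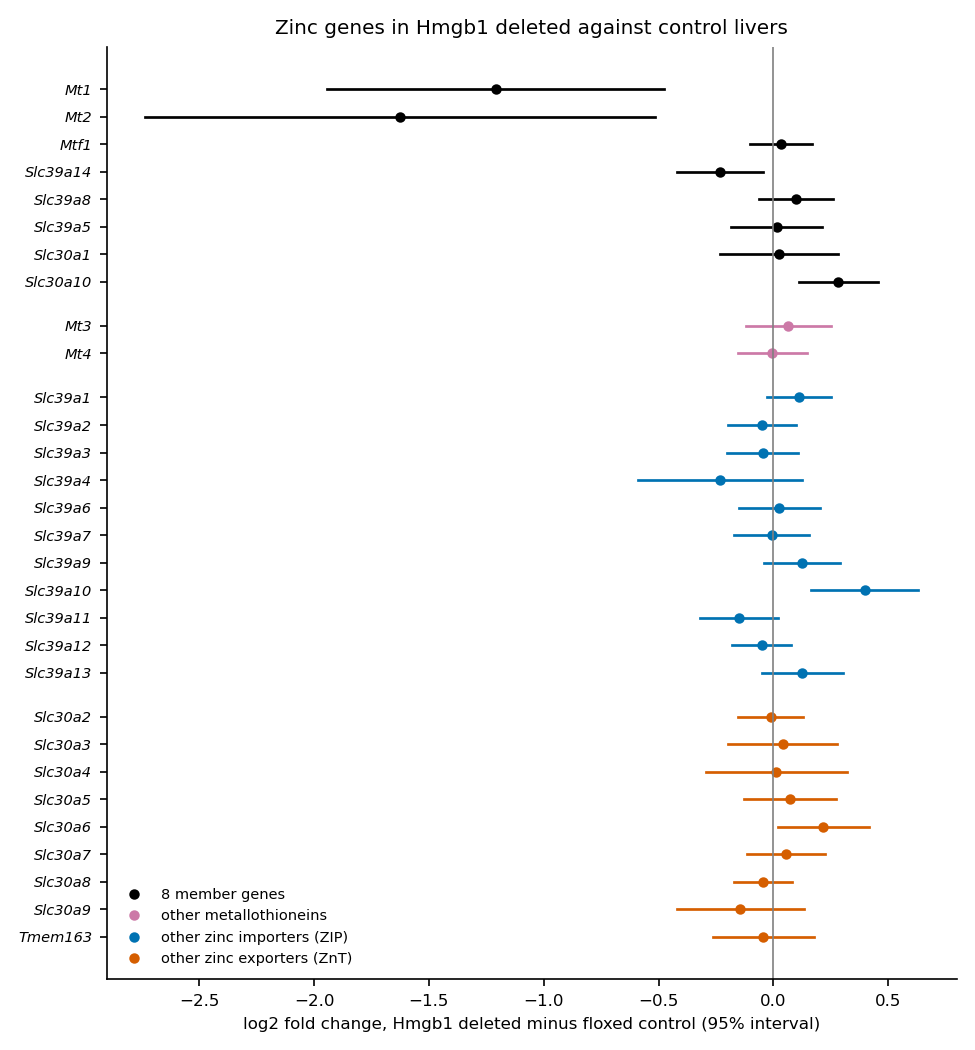
Log2 fold change, Hmgb1 deleted minus floxed control, with its 95% interval for the 8 genes (black), the other metallothioneins (pink), the other ZIP importers (blue) and the other ZnT exporters (orange). Mt1 and Mt2 have the lowest values and the widest intervals, and Slc39a10 has the highest value.

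Genes reported elsewhere to respond to MTF-1 were a further list of 7, besides Mt1, Mt2 and Slc30a1. In it 4 were higher and 3 lower, and 0 passed (limma), with 3 of 7 at an unadjusted p under 0.05. Besides Slc39a10 these were Selenow, a selenoprotein, and Csrp1, a LIM domain protein. Selenow ran from 9.83 to 10.22 on controls and from 9.59 to 9.78 on deleted arrays, a difference of −0.36 (SE 0.087, limma adjusted p = 0.114). It passed without control 1, at −0.44 (limma adjusted p = 0.0102), and in 4 other alternatives. Csrp1 ran from 8.99 to 9.11 and from 8.68 to 8.85, at −0.27 (SE 0.062, limma adjusted p = 0.105), and passed with array weights, at −0.29 (limma adjusted p = 0.0224). For both genes the groups did not overlap, as for 2.3% of all genes in this direction. Ndrg1, a stress-responsive gene, was at 0.17 with overlapping groups.

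Copper, which metallothioneins also bind, and manganese have handling genes of their own. Of 11 measured copper genes 7 were higher and 4 lower, with 0 past the threshold and 1 at an unadjusted p under 0.05 (limma). This was the copper chaperone Atox1, at 9.43 to 9.59 on controls and 9.67 to 9.81 on deleted arrays, 0.21 higher (limma adjusted p = 0.218). The next were Slc31a2 (0.17, and 0.10 without control 1), Commd1 (0.14) and ceruloplasmin, Cp (−0.12). The list's median of 0.075 was 0.014 without control 1, and with quantile normalization again 9 were higher and 2 lower. Of 4 manganese genes 1 was higher, the metal importer Slc11a2 (0.21, limma adjusted p = 0.449), and 3 lower, Sod2 (−0.13), Atp2c1 (−0.060) and Tmem165 (−0.013). Without control 1 the last 2 were at −0.19 and −0.051. None of these 4 passed (0 of 4, limma; 1 at an unadjusted p under 0.05).

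Signals known to induce Mt1 and Mt2 were followed through 3 lists. Of 12 measured genes of the glucocorticoid response 9 were lower and 3 higher, with a median log2 fold change of −0.23 and 7 of 12 at an unadjusted p under 0.05 (limma). Per1, a clock gene that glucocorticoids also induce, fell by 0.49 (SE 0.079, limma adjusted p = 0.0226), with 8.10 to 8.24 on controls and 7.54 to 7.87 on deleted arrays. It was the 1 gene of the list that passed, against 0.692% of all genes, and it lost the call in 7 of 18 alternatives, with a limma adjusted p of up to 0.0938. Dusp1, a phosphatase, was at −0.52, Errfi1 at −0.24 and Fkbp5, a chaperone of the glucocorticoid receptor, at −0.61, none of the 3 past the threshold with all arrays (limma adjusted p from 0.150 to 0.264). Fkbp5 passed without control 2, as the metallothioneins did, at −0.82 (limma adjusted p = 0.0413), and Dusp1 without control 3, at −0.66 (limma adjusted p = 0.0343).

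Of 13 genes of the interleukin-6 and STAT3 response 11 were lower and 2 higher, with a median of −0.17 and 0 past the threshold (limma; 4 at an unadjusted p under 0.05). With quantile normalization again 10 were lower and 3 higher, with a median of −0.085, and without deleted 4 the median was −0.11. The hepatocyte markers described below, 9 of 10 lower, also had a median of −0.17 with all arrays. They share Fgb with this list, and Tat and Pck1 with the glucocorticoid list. The part of a shift common to hepatocyte genes in either list was not tested. Serum amyloid Saa1 was at −0.85 (SE 0.22, limma adjusted p = 0.139), and at −0.68 with array weights, where it passed (limma adjusted p = 0.0357). On deleted arrays Saa1 had 5.59 to 6.15, close to or below the array medians of 6.08 to 6.22, so the size of its fall is uncertain. Il6ra, a receptor chain, was at −0.33, Stat3 at −0.17 and the acute phase gene Orm1 at −0.17. Of 10 genes of the oxidative stress response, which also acts on metallothioneins, 8 were higher and 2 lower, with a median of 0.066 and 0 past the threshold (limma; 1 at an unadjusted p under 0.05). Those with the smallest p were Keap1 (0.25), Gsr (0.20), Srxn1 (0.13) and Hmox1 (0.098). Without control 1, Gsr was at 0.12 and Srxn1 at 0.083.

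The spread of Mt1 and Mt2 among the controls was set beside these genes, which were picked for this after their values were seen. Both metallothioneins had the same order of control arrays, with 1 highest, then 4, 3 and 2. Fkbp5 had 9.39, 8.29, 8.84 and 9.12 on controls 1 to 4, the same order, and 8.02 to 8.43 on deleted arrays. Tsc22d3, another glucocorticoid-induced gene, had it too, with 10.02, 9.26, 9.46 and 9.69. So had Saa1, with 7.48, 6.34, 6.47 and 6.80, and Lcn2, an inflammation-induced protein made by hepatocytes and neutrophils, with 11.09, 8.75, 9.16 and 10.22.

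This order was found for 3 of 12 glucocorticoid genes and for 6 of 13 interleukin-6 and STAT3 genes (46.2%), against 5.60% of all genes. It was found for 0 of the 20 other ZIP and ZnT genes, and for 0 of the other 6 genes of the 8. It was also found for 0 of 7 reported MTF-1 targets, 0 of 11 copper, 0 of 4 manganese and 0 of 10 oxidative stress genes. The order was taken from Mt1 and Mt2 themselves and is led by control 1, the array that stood apart. Of all genes 1117 had this order and 861 the opposite one, among them 2 of the 11 copper genes. Igfbp1 was the third glucocorticoid gene, and Il6ra, Orm2, Cebpb and Cebpd complete the second list. The genes of a list share arrays and can share a source, so the counts are a description. Summed markers of neutrophils (9 measured, log2 of the summed intensities) ran from 8.55 on control 4 to 8.76 on control 1 and from 8.54 to 8.69 on deleted arrays. Of the 9, 0 passed (limma, 0 at an unadjusted p under 0.05). Their group means ran from 4.695 (Ly6g, deleted) to 6.23 (Camp, control), below or close to the array medians of 6.08 to 6.22. Such dim markers could hardly show a change in neutrophils, so no conclusion is drawn from them. The part of either response in the metallothionein levels was not tested.

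**Figure D5:**
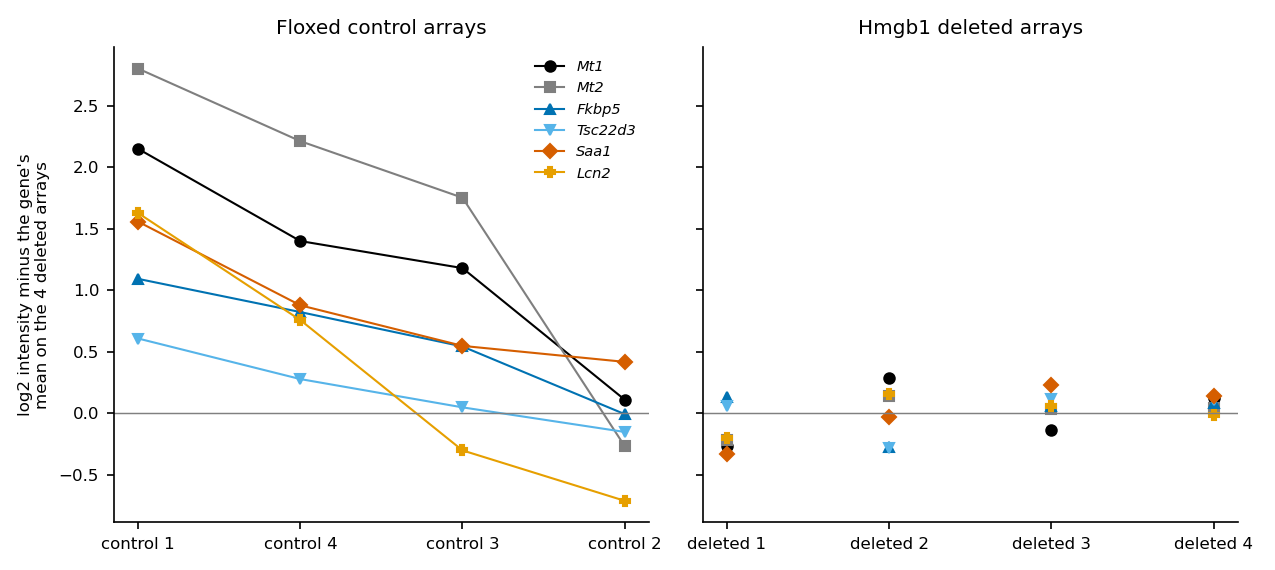
Log2 intensity of Mt1, Mt2 and 4 genes of glucocorticoid or interleukin-6 responses on each array, minus the gene's mean on the 4 deleted arrays (grey line). The 4 genes were picked after their values were seen. Control arrays are sorted by Mt1 and the lines only join a gene's points. Among the controls all 6 genes are highest on control 1 and lowest on control 2, and each spans less on the deleted arrays than on the controls.

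Likeness to Mt1 was also measured over all genes, as Pearson's r across the 8 arrays after each group's mean was subtracted. Mt2 had r = 0.959 and ranked 8 among the 19937 other genes. It had 0.953 without control 1 and 0.776 without controls 1 and 2, the arrays farthest from the median. The 5 named genes with the highest r were Oosp2 (0.972), Thbs2 (0.971), Gja4 (0.964), Folh1 (0.961) and Gadd45b (0.960). The first 4 of these spanned only 0.13 to 0.55 on the log2 scale among controls. Gadd45b, a stress-induced gene, spanned 1.00, with 7.31, 6.31, 6.89 and 6.89 on controls 1 to 4 and 6.44 to 6.79 on deleted arrays. With 8 arrays and 55 genes above 0.9, these are descriptions with no test. Lcn2 had 0.907, Saa1 0.816, Fkbp5 0.793 and Tsc22d3 0.691, and without controls 1 and 2 they had 0.563, 0.449, −0.478 and −0.444. Per1, the glucocorticoid gene past the threshold, had −0.408, and −0.389 without controls 1 and 2. Of the other 6 genes, Slc30a1 had −0.628, and 0.147 without control 1.

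The RNA was of bulk samples, so fewer cells of a type and less RNA per cell cannot be told apart. Of 10 measured hepatocyte markers 9 were lower, with 0 past the threshold and 3 at an unadjusted p under 0.05 (limma). Their summed levels ran from 15.99 to 16.42 on deleted and 16.41 to 16.46 on control arrays. The sum was lowest on deleted 4, where Mt1 and Mt2 had the second highest values of their group. On deleted 4 the highest value of any probe set was also low, at 13.58 against 14.23 to 14.46 on the other arrays. The part of this difference in scale was not tested. Markers of sinusoidal endothelial cells (10 of 10 lower, 1 past the threshold, Clec4g, 6 at an unadjusted p under 0.05, limma) ran from 12.47 to 12.54 on deleted and 12.78 to 12.92 on control arrays. Erythroid markers (4 of 5 measured lower, 0 past the threshold, 3 at an unadjusted p under 0.05, limma) ran from 10.47 to 10.56 and from 10.67 to 11.15. Cholangiocyte markers (3 of 5 measured lower, 0 past the threshold, 1 at an unadjusted p under 0.05, limma) ran from 8.37 to 8.56 and from 8.67 to 8.69. For these 3 lists the summed levels of the groups did not overlap. On control 2, where Mt1 and Mt2 were low, they were 12.78, 11.14 and 8.69, above every deleted array. A sum follows its brightest gene, which was Clec4g (−0.615), Alas2 (−0.545) and Sox9 (−0.35) for the 3 lists. In the erythroid list Epb42 (0.0025) and Slc4a1 (−0.0725) overlapped between groups. So did Krt19, Krt7, Epcam and Cftr of the cholangiocyte list, at −0.19 to 0.025. The part of these cell types in the results was not tested.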

How the data were processed

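For each array, 150 ng of liver RNA was amplified and biotin-labelled, per the labels' protocols. The authors deposited log2 intensities made with RMA, per the submitters' processing notes. RMA's version was not given in the sources used here, nor was the build. Of 35556 probe sets, 21789 carried 1 gene symbol in GEO's annotation, 1621 several and 12146 none. The brightest single-symbol probe set by mean over the 8 arrays stood for each of 19938 genes, with no filter on dim genes. Array medians were 6.08 to 6.22. The number of arrays limits the precision.

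Groups were compared with limma 3.58.1 in R 4.3.3 (lmFit, eBayes, 2-sided, no covariate), tested on simulated data, with Benjamini-Hochberg adjustment over all genes and a threshold of 0.05. Log2 fold changes give deleted livers relative to controls. By gene ID, RefSeq's table for GRCm38.p6 held all 8 genes. By symbol, its promoter sequences held 7 of 8, all but Slc39a14. Python 3.11.15 and matplotlib 3.10.9 drew the figures. The genes, lists, tests and alternatives were chosen with earlier results of these data known. Named are the 8 genes, genes of each list past the threshold, up to 4 per list with the smallest p and the 5 genes most like Mt1. Left out of these 5 were predicted, microRNA and olfactory or vomeronasal receptor genes. Alternatives were all probe sets, their mean per gene, leaving out dim genes, quantile normalization again, median centring, a variance trend, a robust prior, a block on the replicate number, array weights and each array left out. Leaving out both arrays numbered 1, and list counts with arrays left out or rescaled, were added after seeing the data. Deviations of same-numbered arrays correlated for numbers 1 (r = 0.447) and 4 (0.422) and not for 2 (0.0652) and 3 (−0.0814), so the numbers were not taken as pairs.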

Additional observations from a re-analysis of the deposited data

Results flagged for a closer look

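In 84 groups of 4 values, 7 had 1 array far from the other 3 by the gap to its neighbour over the group's range. Chance gives about 1 in 20, or 4.2. The groups were those of the 8 genes, Hmgb1 and the genes named for their p from the lists of metal and response genes. Cell type markers, the genes most like Mt1, and Lcn2, Tsc22d3, Igfbp1, Orm2, Cebpb and Cebpd were not searched. Of the 8 genes, only Slc30a10 was among the 7, with 8.84 on floxed control 3 against 9.08 to 9.12 on the other controls. The importer gene Slc39a10 had 6.86 on deleted 4 against 6.43 to 6.50. On floxed control 1, Slc30a6 had 7.83 against 8.16 to 8.20, Slc31a2 8.48 against 8.73 to 8.76, and Sod2 11.19 against 11.36 to 11.39. Fkbp5 had 8.02 on deleted 2 against 8.36 to 8.43, and Hmox1 8.60 on floxed control 2 against 8.41 to 8.43. The high Mt1 and Mt2 values of control 1 and the low ones of control 2 were not far enough from their neighbours to be among the 7.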

How the results depend on the processing

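Each of the 8 genes was refitted under 18 alternatives. Mt1, Mt2, Slc39a14, Slc39a8 and Slc30a10 kept their direction in all 18. Leaving out 1 array gave −1.58 to −0.90 for Mt1 and −2.26 to −1.23 for Mt2, and between 0 and 2 of the 8 genes past the threshold, the 2 without control 2. With array weights 1 passed, Slc30a10, at 0.31. The cause was not tested. Over all genes 138 passed in the comparison reported, and 264 with quantile normalization again, 61 with arrays centred on their medians, 526 with array weights, 325 with the replicate number as a block, 366 without both arrays numbered 1, and 37 to 321 with 1 array left out. The block changed no call of the 8 genes; with it Dusp1 (limma adjusted p = 0.0216), Fkbp5 (0.0322) and Selenow (0.0299) passed. Small changes turned sign. With array weights Mtf1 had −0.0010 and Slc30a1 −0.057, and without both arrays numbered 1 Slc30a1 had −0.093 and Slc30a5 −0.0067. Mt4 had 0.016 with quantile normalization again, 0.015 with centred arrays and 0.0014 with weights, and Tmem165 had 0.0075 with centred arrays. With 1 array left out, values ran from −0.0025 to 0.058 for Mtf1, −0.11 to 0.098 for Slc30a1, −0.028 to 0.090 for Slc39a5, −0.037 to 0.037 for Mt4, −0.0083 to 0.14 for Slc30a5, −0.051 to 0.013 for Tmem165 and −0.19 to 0.0058 for Atp2c1.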
